A study of Homo sapiens with 6 samples.

Results

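The genes described here are 10 transcripts that report and restrain signalling through the kinase ERK: the Sprouty genes SPRY1, SPRY2 and SPRY4, the Sprouty-related genes SPRED1 and SPRED2, the dual-specificity phosphatase genes DUSP4, DUSP5 and DUSP6, and the early response genes EGR1 and IER3. Every probe set of the deposited table that the platform annotation pairs with exactly 1 of these symbols was taken, which gave 28 of 49293 probe sets. All 10 genes had at least 1 probe set, and 4 of them had only 1. The genes were put forward with earlier results of the same comparison in view. Their differences are therefore a description, and their adjusted p-values are no independent evidence about the group.

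The samples were 3 arrays of A375 cells with MAP4K5 stably knocked down by short hairpin RNA (knockdown) and 3 arrays of A375 cells without it (control). A375 is a human melanoma cell line that carries an activating mutation of the kinase BRAF, which both groups share. All 6 cultures grew untreated in DMEM with fetal bovine serum and antibiotics, and the labels call them biological replicates without saying how the cultures were kept apart. The knockdown is 1 stable line as far as the labels tell, and the labels do not say whether the control cells carried a vector. Other effects of making the line and the lower MAP4K5 level cannot be told apart.

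ERK is the last kinase of the RAS, RAF, MEK and ERK cascade, and active ERK switches on genes within minutes without new protein synthesis, the immediate early genes. It also switches on its own brakes: Sprouty and SPRED proteins act on the cascade at or above RAF, and dual-specificity phosphatases remove the activating phosphates from ERK itself. In melanoma cells with mutant BRAF these transcripts are widely used as a readout of ERK output. MAP4K5, one of the germinal centre kinases, is better known for its link to the JNK pathway.

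The knockdown was visible in every array. At its brightest probe set, MAP4K5 measured 19.7, 18.8 and 20.3 in knockdown arrays, against 77.7, 78.1 and 76.3 in control arrays (RMA intensity, linear scale). Control replicate 2 matched the other controls for MAP4K5 but stood apart over the whole array: its log2 values differed from those of control replicates 1 and 3 with an SD of 0.311 and 0.304, and from those of the knockdown arrays with an SD of 0.264 to 0.273, while controls 1 and 3 differed from each other with an SD of 0.226. Each member's difference is given with and without it. Control replicate 2 was singled out on the values of these same arrays, and leaving it out leaves 2 controls. Where it lies toward the knockdown level, leaving it out widens the difference by construction. Of the melanocyte lineage markers, MITF, SOX10 and S100B lay at 22.1 or more in all arrays and PMEL, MLANA and TYR at 3.90 or less, below the median of all probe sets (4.88). MITF rose by 0.99 in knockdown cells, while SOX10 fell by 0.54 and S100B fell by 1.31 on the log2 scale (limma adjusted p = 0.0151, 0.0387 and 0.00339). Of the neural crest markers, AXL measured 663 to 720 in knockdown arrays and 686 to 945 in control arrays. Its log2 difference was -0.28 (limma adjusted p = 0.274), and -0.42 without control replicate 2 (limma adjusted p = 0.0202). NGFR measured 14.8 to 15.9 in knockdown arrays and 14.4 to 14.7 in control arrays (0.09, limma adjusted p = 0.639). Markers of fibroblasts, keratinocytes and leukocytes, 12 measured of 13, summed to 52.2 to 53.1 in knockdown arrays and 45.4 to 48.8 in control arrays, and none had a geometric mean over the 6 arrays of 10 or more. The keratin gene KRT14, among these markers, rose in knockdown cells (log2 difference 1.09, limma adjusted p = 0.00925). The part of these marker changes in the results below was not tested.

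EGR1, SPRY4 and SPRY2 were lower in all 3 knockdown arrays by the widest margins of the 10 genes, and the sequence just before their transcription starts is shown to set them side by side. Each window holds the 250 bases before a RefSeq start (GRCh38.p14), read 5′ to 3′ on the strand of the gene. Capitals mark the CArG box, the core of the serum response element that binds SRF and its ERK-phosphorylated partners, and TGACG, the cyclic AMP response element half-site, on either strand. No match overlapped another. EGR1 lies at chr5:138465229-138465478 on the plus strand, SPRY4 at chr5:142324248-142324497 on the minus strand, and the SPRY2 window, the only 1 of its 3 listed starts with a match, at chr13:80341127-80341376 on the minus strand.
EGR1: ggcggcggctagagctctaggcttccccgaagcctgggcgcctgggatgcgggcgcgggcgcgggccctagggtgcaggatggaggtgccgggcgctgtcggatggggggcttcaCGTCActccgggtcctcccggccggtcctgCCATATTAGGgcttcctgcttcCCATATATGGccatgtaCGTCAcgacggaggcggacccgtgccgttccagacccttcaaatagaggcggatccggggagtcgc
SPRY4: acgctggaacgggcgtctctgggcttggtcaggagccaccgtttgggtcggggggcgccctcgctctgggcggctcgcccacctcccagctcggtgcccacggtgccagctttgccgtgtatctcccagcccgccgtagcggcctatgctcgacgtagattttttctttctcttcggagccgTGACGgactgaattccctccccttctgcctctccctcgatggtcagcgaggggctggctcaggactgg
SPRY2: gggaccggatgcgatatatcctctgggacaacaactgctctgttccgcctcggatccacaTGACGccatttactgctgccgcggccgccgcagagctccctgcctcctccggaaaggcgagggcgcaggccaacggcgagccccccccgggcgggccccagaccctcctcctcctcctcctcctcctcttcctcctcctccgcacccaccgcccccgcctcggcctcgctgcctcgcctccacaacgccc
The EGR1 window held 2 CArG boxes, starting 105 and 83 bases before the start, and TGACG on the opposite strand on either side of the pair. Of 7 members with a listed window, EGR1 was the only one with a CArG box, which 1.16% of all 35116 windows hold. TGACG occurred in 3 of the 11 member windows, those shown of EGR1, SPRY4 and SPRY2, and in 21.2% of all windows. DUSP4, DUSP5 and IER3 had no listed window. These are matches of letters only.

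Across the 10 genes, each read at the probe set with the highest mean, 2 fell, 1 rose and 7 were not called by limma at an adjusted p under 0.05 over all 49293 probe sets. SPRY4 and SPRY2 fell and DUSP4 rose. Over the brightest probe sets of all 18132 genes, 5.82% were called, 2.71% upwards and 3.12% downwards. The knockdown and control arrays did not overlap for 8 of the 10 genes, 7 lower and 1 higher in knockdown cells, beside 28.1% of all genes, 13.2% lower and 14.9% higher. The median log2 difference was -0.25 over the 10 genes and 0.01 over all genes. Without control replicate 2 the calls became 5 down and 1 up, beside 8.42% and 8.43% of all genes. Nothing is read from these shares, because the genes were chosen on the same comparison. Over all 28 member probe sets, 4 fell (1 each of SPRY2, SPRY4, SPRED1 and EGR1), 1 rose (DUSP4) and 23 were not called, beside 2.46% down, 1.98% up and 4.43% called in all among the 49293 probe sets. Their groups did not overlap at 17, of which 16 were lower in knockdown cells and 1 higher, beside 23.9% of all probe sets, 11.7% lower and 12.1% higher. Without control replicate 2, 8 of the 28 fell and 1 rose, beside 6.88% down and 6.51% up. In a culture of 1 cell line, fewer cells with a transcript and less transcript per cell cannot be told apart.

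**Figure D1:**
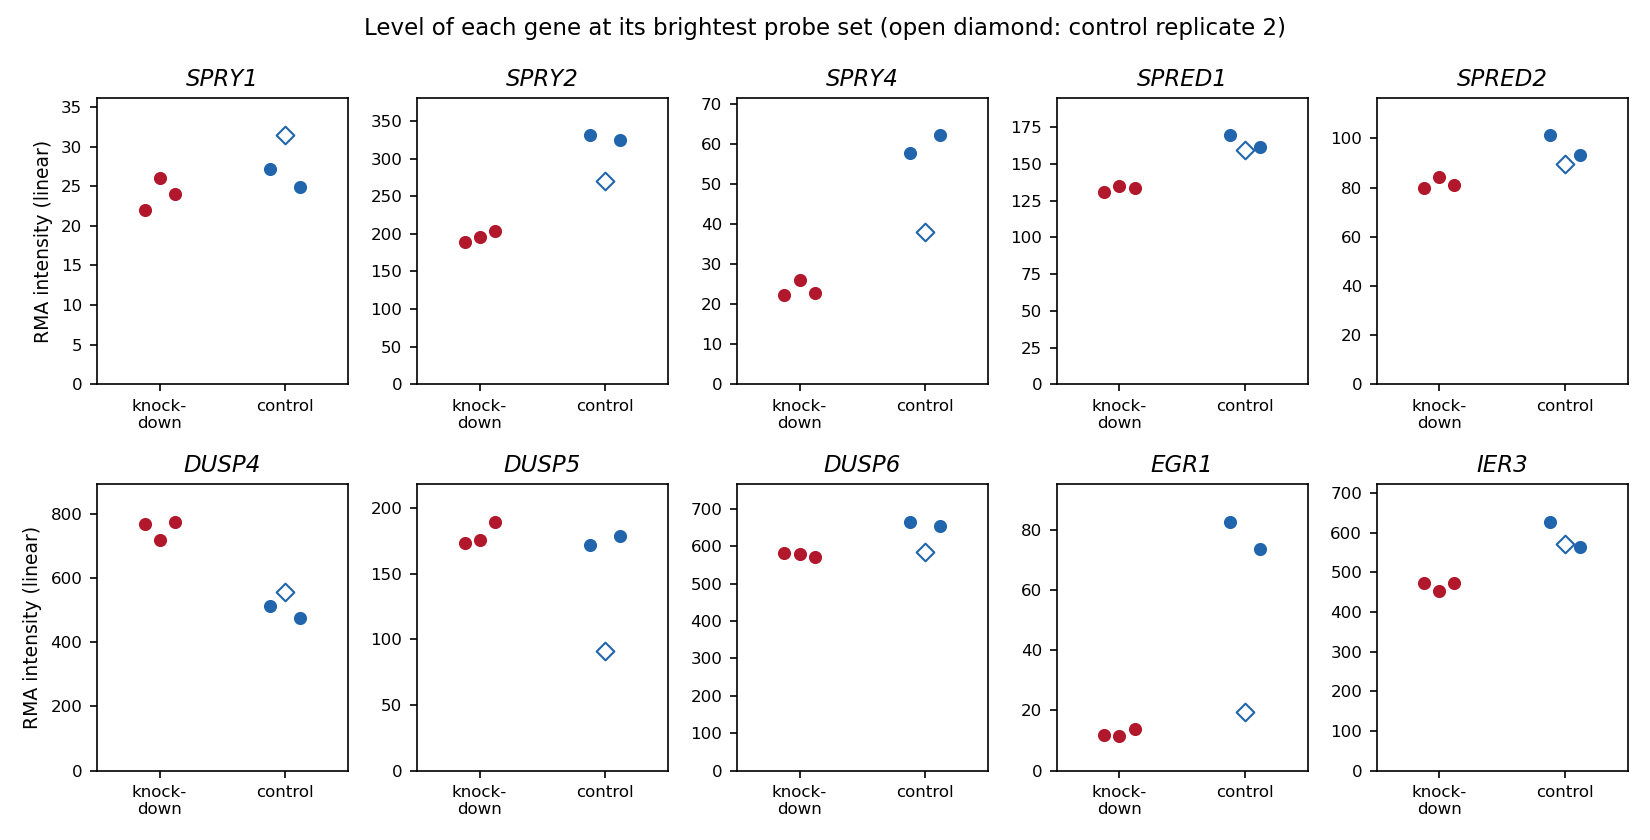
RMA intensity on a linear axis from 0 for each of the 10 genes at its brightest probe set, with 1 point per array, 3 knockdown arrays in red and 3 control arrays in blue. Control replicate 2 is the open diamond: for EGR1 it lies at 19.4, near the knockdown arrays at 11.4 to 13.9, and for DUSP5 it lies at 91.5, below all other arrays.

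Among the Sprouty genes, which encode inhibitors that block receptor tyrosine kinase signals on their way to ERK, SPRY4 moved the most. At probe set 11754344_s_at SPRY4 measured 22.2, 26.1 and 22.8 in knockdown arrays, against 57.6, 38.1 and 62.2 in control arrays. The groups did not overlap, and control replicate 2 was the lowest control, 48.4% of the way (on the log2 scale) between the other controls and the knockdown mean. SPRY4 fell by 1.13 ± 0.18 on the log2 scale (SE, n = 3 each; limma adjusted p = 0.0126), a 2.18-fold difference. Without control replicate 2 the difference was -1.34 (limma adjusted p = 0.000256), and against that array alone it was -0.69. The call was kept without control 2 or control 3 and lost without control 1 or any knockdown array, where limma adjusted p-values lay between 0.0507 and 0.0779 and the difference between -1.20 and -1.04. The remaining SPRY4 probe sets, with means of 3.23 and 2.36, lay below the median probe set and differed by -0.05 and -0.02.

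SPRY2, read by the single probe set 11753988_a_at, measured 189, 196 and 203 in knockdown arrays, against 331, 270.1 and 325 in control arrays. Again the groups did not overlap and control replicate 2 was the lowest control, 37.7% of the way to the knockdown mean. SPRY2 fell 1.57-fold (log2 -0.65 ± 0.10 SE, n = 3 each; limma adjusted p = 0.0136). The difference was -0.74 without control replicate 2 and -0.46 against it alone. Leaving out any other array kept the direction (-0.68 to -0.60) and lost the call, with limma adjusted p-values of 0.0552 to 0.0817.

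SPRY1 was not called at any of its 3 probe sets. At the brightest it measured 22.1, 26.0 and 24.0 in knockdown arrays, against 27.2, 31.4 and 24.9 in control arrays, and the groups overlapped. Control replicate 2 was here the highest of all 6 arrays, opposite to its place for SPRY2 and SPRY4. The log2 difference was -0.21, with a 95% interval from -0.47 to 0.05 (-0.12 without control replicate 2 and -0.39 against it alone), and the other probe sets stood at -0.05 and -0.07. The interval of SPRY1 thus leaves room for a fall of up to 0.47, short of the estimates for SPRY2 and SPRY4. It overlaps the 95% interval of SPRY2 (-0.88 to -0.42), and a difference between these genes was not tested.

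SPRED1 and SPRED2 encode membrane proteins that bring neurofibromin, which switches RAS off, to the cell membrane. SPRED1 had 5 probe sets, all with a negative difference, and the groups did not overlap at 4 of them. At its brightest, 11734826_s_at, SPRED1 measured 131, 135 and 134 in knockdown arrays, against 169, 159.8 and 162 in control arrays. Each group was tight and control replicate 2 lay with its group. The log2 difference of -0.30 ± 0.08 (SE, n = 3 each) missed the threshold (limma adjusted p = 0.0779), and passed it without control replicate 2 (-0.32, limma adjusted p = 0.0476). Without any other array this probe set was not called (limma adjusted p of 0.164 to 0.243) at differences of -0.31 to -0.27. A dimmer probe set, 11734824_at, was called. It measured 12.5, 13.2 and 14.4 in knockdown arrays, against 23.3, 20.5 and 17.1 in control arrays, a fall of 0.60 ± 0.13 on the log2 scale (limma adjusted p = 0.0359). That call was kept without control 2 or control 3 and lost without control 1 or any knockdown array (-0.65 to -0.49). The probe set 11734825_at measured 91.7 to 97.4 in knockdown arrays and 108 to 118 in control arrays (-0.27), and 11734827_at 45.8 to 51.6 in knockdown arrays and 58.8 to 67.3 in control arrays (-0.37). Neither was called (limma adjusted p = 0.12 and 0.0673). The fifth, at 17.0 to 17.3 in knockdown arrays and 13.8 to 24.0 in control arrays, overlapped and stood at -0.14.

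For SPRED2, the brightest probe set measured 79.8, 84.4 and 81.2 in knockdown arrays, against 101, 89.6 and 93.1 in control arrays. All knockdown arrays were lower, but the difference of -0.21 (95% interval -0.41 to -0.01) was not called (limma adjusted p = 0.234), nor was it without control replicate 2 (-0.25, limma adjusted p = 0.122). A second probe set near the median level stood at -0.25 and the dimmest, with a mean of 2.72, at 0.11, neither called.

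**Figure D2:**
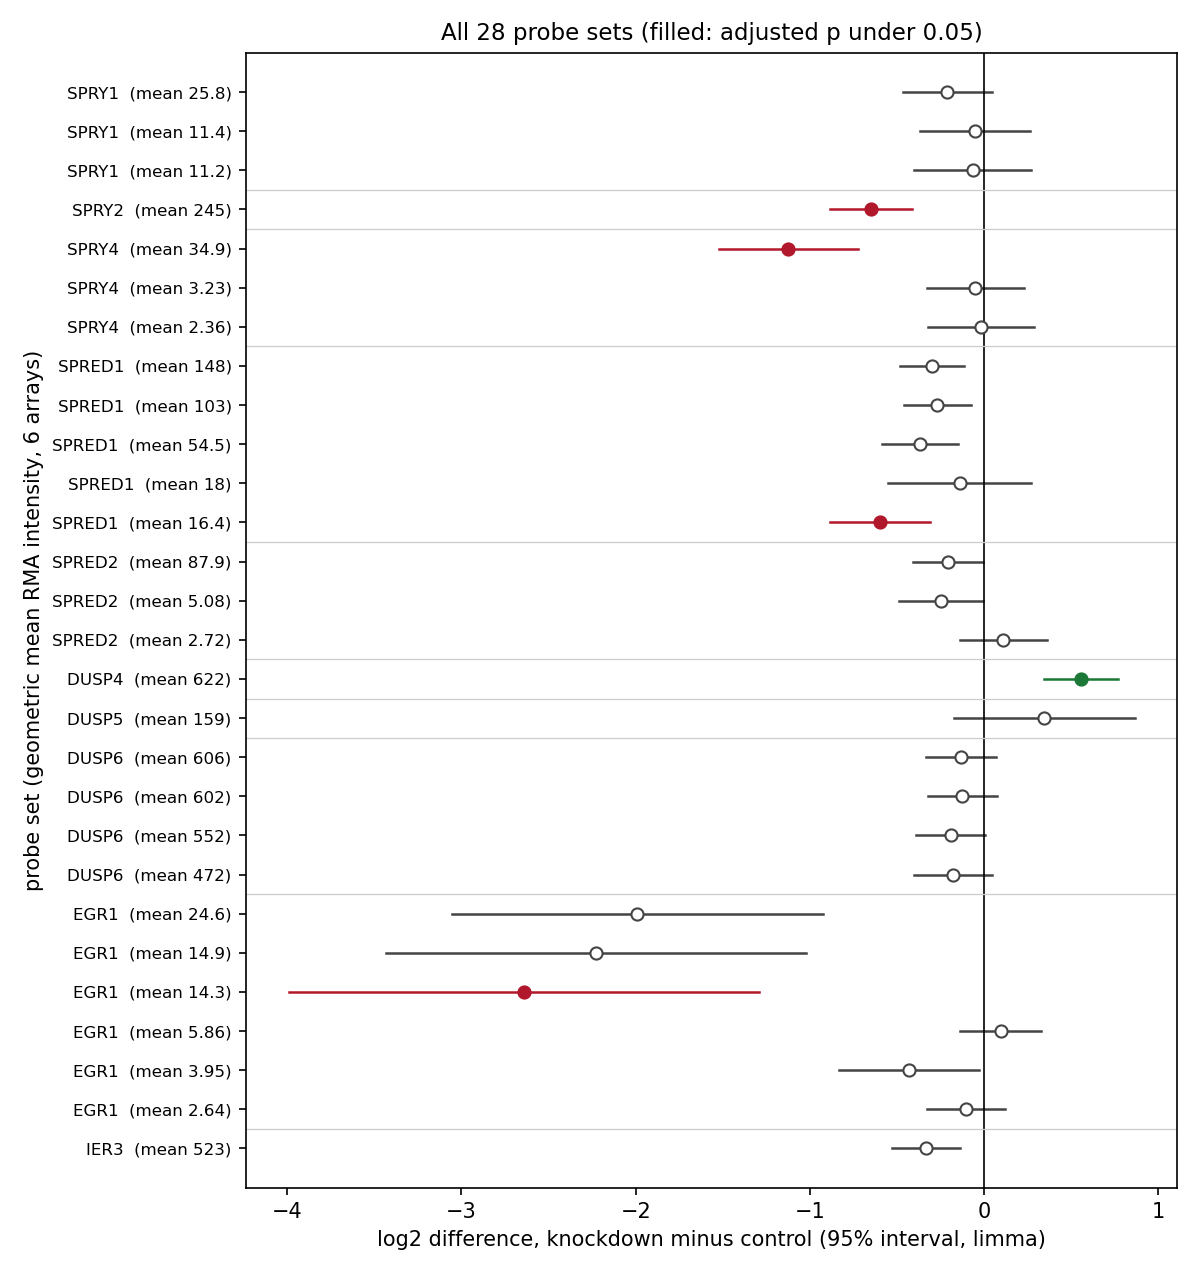
Log2 difference, knockdown minus control, of all 28 probe sets with its 95% interval from limma (horizontal axis), grouped by gene, with the geometric mean RMA intensity over 6 arrays beside each symbol. Filled points have an adjusted p under 0.05: 4 lower in red (SPRY2, SPRY4, SPRED1 and EGR1) and DUSP4, higher, in green. The 3 brighter EGR1 probe sets have the widest intervals.

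The phosphatases did not move as one. DUSP4 encodes a nuclear phosphatase of ERK and of the stress kinases JNK and p38, and it went the other way from the Sprouty genes. DUSP4 measured 768, 719 and 775 in knockdown arrays, against 511, 557 and 474 in control arrays, with no overlap. It rose 1.47-fold (log2 0.55 ± 0.09 SE, n = 3 each; limma adjusted p = 0.0168), by 0.61 without control replicate 2 and by 0.44 against that array alone. As for SPRY2, leaving out any array but control 2 lost the call (limma adjusted p of 0.0623 to 0.093) at differences of 0.50 to 0.59.

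DUSP6 encodes the cytoplasmic phosphatase specific to ERK, and it was read by 4 probe sets, none of them called. At the brightest, DUSP6 measured 583, 580.2 and 572 in knockdown arrays, against 667, 584 and 655 in control arrays. Control replicate 2 stood within 1 unit of the highest knockdown array, 92.9% of the way to the knockdown mean. It lay 88.1% and 82.7% of the way at 11741980_a_at and 11722049_a_at, but 34.9% at 11744618_a_at (569.7, against 599.3 and 601.7 in controls 1 and 3), so the 4 probe sets differ on its place. The remaining 3 probe sets measured 439 to 583 in knockdown arrays and 457 to 665 in control arrays, and the groups did not overlap at any of the 4. Their differences ran from -0.19 to -0.13 (limma adjusted p of 0.273 to 0.498). At the brightest, the 95% interval ran from -0.33 to 0.07, so a fall as large as that of SPRY2 lies outside it. The same probe set stood at -0.19 without control replicate 2 (limma adjusted p = 0.194) and at -0.01 against it alone.

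DUSP5, a nuclear phosphatase specific to ERK, measured 173, 176 and 189.8 in knockdown arrays, against 172, 91.5 and 179 in control arrays. Here control replicate 2 stood alone, below all 5 other arrays, and controls 1 and 3 lay at the level of the knockdown arrays. The difference was 0.35 (95% interval -0.18 to 0.87; limma adjusted p = 0.476), 0.03 without control replicate 2 and 0.97 against it alone. Of all probe sets, 16.4% had their lowest value in control replicate 2.

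EGR1, a zinc finger transcription factor that is among the fastest genes to answer ERK, had the largest differences of the 10 genes and the least even controls. At its brightest probe set, 11754334_s_at, EGR1 measured 11.9, 11.4 and 13.9 in knockdown arrays, against 82.7, 19.4 and 73.7 in control arrays. At 11717860_a_at the levels were 5.31, 5.37 and 6.62 in knockdown arrays, against 75.9, 11.1 and 54.8 in control arrays. At 11752940_a_at they were 5.40, 7.63 and 7.88 in knockdown arrays, against 65.2, 11.7 and 43.9 in control arrays. At each of these 3 probe sets every knockdown array lay below every control array, and control replicate 2 lay 72.8% to 75.6% of the way from the other controls to the knockdown mean.

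The log2 differences were -1.99 ± 0.47, -2.64 ± 0.59 and -2.23 ± 0.53 (SE, n = 3 each), and the limma adjusted p-values of 0.0513, 0.0443 and 0.0531 put only the second past the threshold. Without control replicate 2 all 3 were called, at -2.66, -3.49 and -2.96 (limma adjusted p of 2.46e-05, 2.62e-05 and 0.000171). Because that array lay toward the knockdown level, leaving it out had to enlarge the differences. It also narrowed the spread of the controls, so these p-values add no evidence. With control replicate 2 as the only control the differences were -0.65, -0.95 and -0.76. Without any other array none of the 3 was called. The other 3 EGR1 probe sets, with means between 2.64 and 5.86, overlapped between the groups and differed by -0.43 to 0.10.

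IER3, a stress-inducible gene whose product prolongs ERK activity and cell survival, was read by 1 probe set. It measured 474, 452 and 472 in knockdown arrays, against 628, 571 and 565 in control arrays. The groups did not overlap, and control replicate 2 lay between the other controls. The log2 difference of -0.33 ± 0.09 (SE, n = 3 each) was not called (limma adjusted p = 0.0676), and was called without control replicate 2 (-0.35, limma adjusted p = 0.0409). Without any other array IER3 was not called (limma adjusted p of 0.13 to 0.219) at differences of -0.36 to -0.29.

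**Figure D3:**
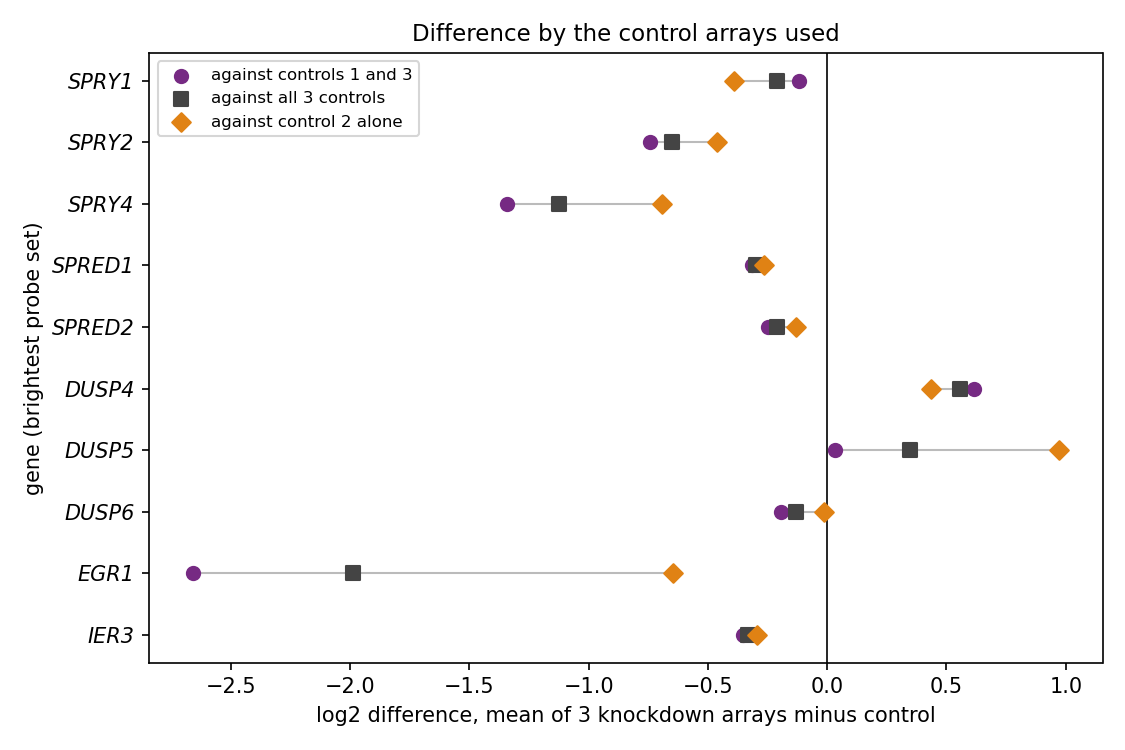
Log2 difference of each gene at its brightest probe set (horizontal axis), as the mean of 3 knockdown arrays minus controls 1 and 3 (circles), all 3 controls (squares) or control 2 alone (diamonds). EGR1 runs from -2.66 to -0.65 and DUSP5 from 0.03 to 0.97 with the choice of controls, while IER3 and SPRED1 stay between -0.35 and -0.26.

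At the brightest probe sets the place of control replicate 2 differed from gene to gene, as a description made after the values were seen. Control 2 lay most of the way to the knockdown level for DUSP6 and EGR1 (92.9% and 75.6%), although 1 other DUSP6 probe set put it at 34.9%. The share was 48.4% for SPRY4, 46.6% for SPRED2, 37.7% for SPRY2, 29.0% for DUSP4, 17.5% for IER3 and 16.2% for SPRED1, with no clear gap between them. For SPRY1 and DUSP5 it lay outside the range of the other 5 arrays. Both axes of the scatter of these positions use controls 1 and 3, so a spread along its diagonal is partly built in.

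**Figure D4:**
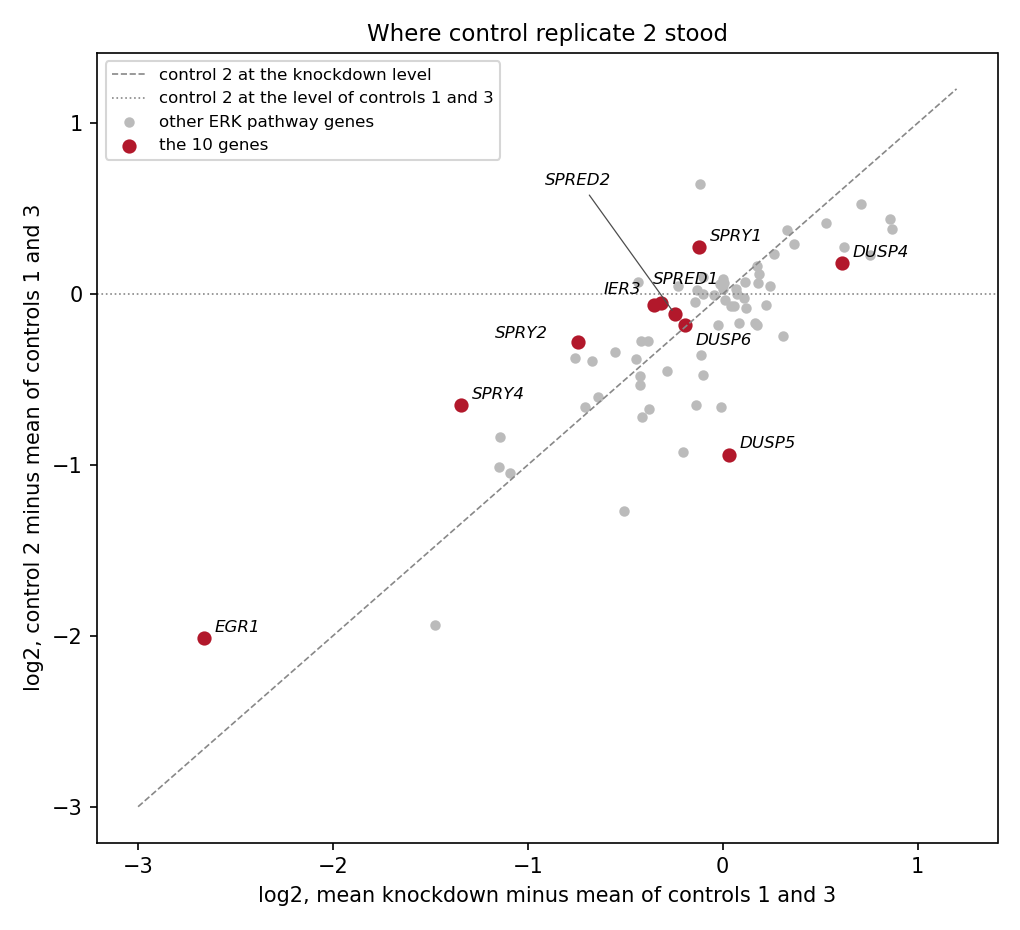
Position of control replicate 2 relative to the mean of controls 1 and 3 (vertical axis, log2) against the knockdown mean relative to the same controls (horizontal axis, log2), for the 10 genes (red) and 62 other ERK pathway genes (grey). Points on the dashed line have control 2 at the knockdown level and points on the dotted line have it at the level of controls 1 and 3. EGR1 lies nearer the dashed than the dotted line, and DUSP5 lies far below the dotted line.

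Other genes of the pathway were taken from 6 lists written from general knowledge, of which 62 of 69 genes were measured, each at its brightest probe set. Of these, 4 rose, 2 fell and 56 were not called, which is 9.68% called beside 5.82% of all genes. The median log2 difference was 0.01, as over all genes. Without control replicate 2, 6 rose and 16 fell, beside 8.43% and 8.42% of all genes.

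Among 12 other ERK output genes, 1 fell, 1 rose and 10 were not called. The list median was -0.28 against all controls, -0.42 without control replicate 2 and -0.04 against that array alone, so its size depends on the controls used. TRIB2, a pseudokinase gene, measured 67.1, 67.1 and 72.3 in knockdown arrays, against 88.5, 97.3 and 97.5 in control arrays, and fell by 0.46 ± 0.09 on the log2 scale (limma adjusted p = 0.0272). EPHA4, an ephrin receptor gene, measured 10.6, 11.4 and 9.82 in knockdown arrays, against 4.92, 7.55 and 6.82 in control arrays, and rose by 0.74 ± 0.15 (limma adjusted p = 0.035). Without control replicate 2, 6 of the 12 fell and 1 rose, beside 8.42% and 8.43% of all genes.

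Of 17 other immediate early genes measured, 2 rose, 1 fell and 14 were not called. IER5 measured 138, 126 and 128 in knockdown arrays, against 73.0, 90.5 and 82.0 in control arrays, a rise of 0.68 ± 0.10 on the log2 scale (limma adjusted p = 0.0111). KLF6, a zinc finger transcription factor gene, rose by 0.53 ± 0.10 (limma adjusted p = 0.0263). The orphan nuclear receptor gene NR4A1 measured 20.2, 20.0 and 17.3 in knockdown arrays, against 35.7, 24.97 and 29.4 in control arrays, a fall of 0.63 ± 0.14 (limma adjusted p = 0.0388). EGR1 was thus lower in knockdown cells while IER5 and KLF6 were higher. FOS, a subunit of the AP-1 transcription factor, measured 7.80 to 8.82 in knockdown arrays and 6.56 to 7.51 in control arrays and was not called (0.24, limma adjusted p = 0.223). EGR3 (-0.81) and IER2 (-0.48) were not called either (limma adjusted p = 0.121 and 0.163). At an unadjusted limma p under 0.05, 3 of the 17 were higher (IER5, KLF6 and FOS) and 3 lower (NR4A1, EGR3 and IER2). Without control replicate 2, 2 of the 17 rose and 8 fell, beside 8.43% and 8.42% of all genes. Control replicate 2 held the lowest of the 6 values for 7 of these 17 genes, as for DUSP5, beside 17.3% of all genes. The list median was -0.13 against all controls, -0.29 without control replicate 2 and 0.29 against that array alone, so its sign depends on the controls used.

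Of 11 measured genes of the RAS, RAF, MEK and ERK cascade, HRAS rose (0.71 ± 0.13, limma adjusted p = 0.0218) and 10 were not called. Limma called 0 of the 8 other MAPK phosphatase genes, 0 of the 8 relatives and partners of Sprouty and SPRED and 0 of the 6 genes of SRF and its partners, where 2, 3 and 1 had an unadjusted p under 0.05. The gene with the smallest p in each of these lists was DUSP1 (0.39, limma adjusted p = 0.076), the caveolin gene CAV1 (0.39, limma adjusted p = 0.133) and SRF (0.22, limma adjusted p = 0.244). DUSP1, a nuclear phosphatase of the stress kinases and ERK, measured 17.2 to 19.0 in knockdown arrays and 12.2 to 15.2 in control arrays. Of the 6 called pathway genes, all were called without control replicate 2. IER5 was called in 3 of the 6 fits without 1 array, and TRIB2, EPHA4, KLF6, NR4A1 and HRAS only in the fit without that control.

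**Figure D5:**
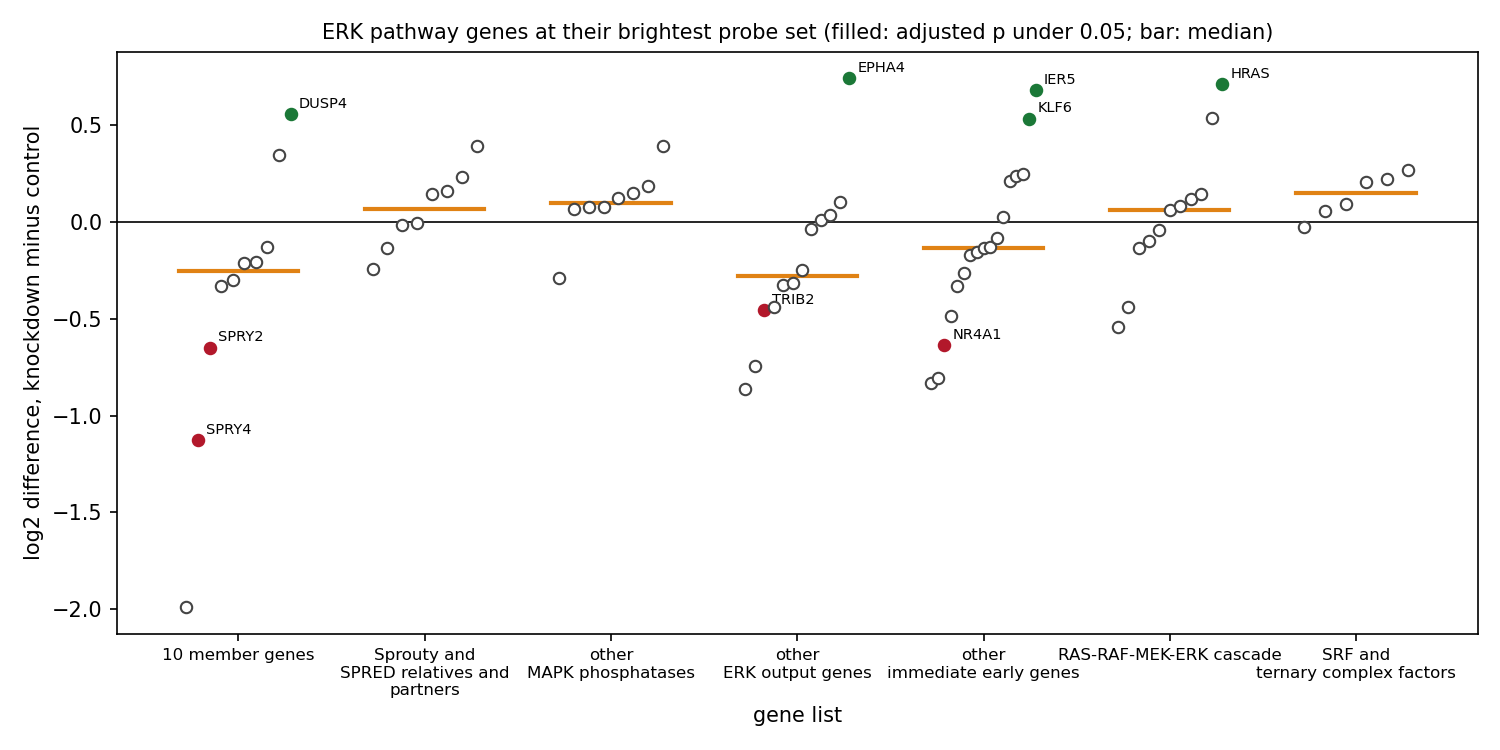
Log2 difference, knockdown minus control (vertical axis), of the 10 genes and of 6 lists of other ERK pathway genes at their brightest probe sets, 1 point per gene. Filled points were called (green higher, red lower), and the bar is the median of each list, from -0.28 for the other ERK output genes to 0.15 for SRF and its partners.

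The genes whose levels ran most like those of the 3 called members over the 6 arrays were sought among 9056 candidates above the median level. They were HLA-DPA1 and CYTH3 for SPRY2 (Pearson r of 0.999 each), LINC02910 and MDM4 for SPRY4 (0.998 each), and ADRM1 and ADAM19 for DUSP4 (0.995 each). These coefficients are the highest of 9056 over 6 arrays in 2 groups and are given as a description only. HLA-DPA1, the first match of SPRY2, measured 127 to 139 in knockdown arrays and 281, 209.8 and 283 in control arrays.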

How the data were processed

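The deposited table holds probe set intensities on a linear scale for 6 Affymetrix arrays, made by the authors with RMA, per the submitters' processing notes. Those notes name no RMA version. Values ran from 1.55 to 6658, and array medians lay between 4.85 and 4.94. RMA compresses differences of dim probe sets, and the number of arrays limits the precision.

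Log2 of the intensity was taken without a pseudocount. Knockdown was compared with control by limma 3.58.1 in R 4.3.3 (lmFit, then eBayes with no intensity trend) over all 49293 probe sets, two-sided, with Benjamini-Hochberg adjustment and a threshold of 0.05, on which calls rest. The standard error (SE) and 95% intervals are those of that fit. With 3 arrays against 3, an exact permutation test cannot go below p = 0.1, so none was used. P-values rest on the spread among the arrays of a group, which may be technical. Each gene of the wider pathway was read at the probe set with the highest mean log2 value, over 18132 genes. Tables and plots used Python 3.11.15, numpy 2.4.6, pandas 2.3.3 and matplotlib 3.10.9, and promoter windows came from RefSeq (GRCh38.p14).

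Named were MAP4K5, every member probe set, each called pathway gene (or the gene with the smallest p where a list had none), and the 2 genes most correlated with each called member. Members and lists were chosen with earlier results of these data known. Genes named beyond that rule (FOS, EGR3, IER2, MYC, LIF, FOSL1, CCND1, ETV5, the markers and KRT14) were chosen after their values were seen.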

Additional observations from a re-analysis of the deposited data

How the results depend on the processing

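Over all probe sets 2186 were called, 5 of them among the 28 member probe sets, and 6 of 62 other pathway genes were called. Leaving out 1 array at a time gave 391 to 6599 probe sets in all, 0 to 9 member probe sets and 0 to 22 pathway genes. The highest of each came without control replicate 2, and the counts without controls 1 and 3 were 691 and 808 probe sets, 0 and 2 member probe sets and 1 and 1 pathway genes. Without knockdown replicates 1, 2 and 3 they were 391, 473 and 538 probe sets, 0 member probe sets and 0 pathway genes each. Array weights gave 4652 probe sets, 9 member probe sets and 15 pathway genes. An intensity trend and leaving out the dimmer 50% of probe sets each gave 8 member probe sets. With 1 probe set per gene 1420 of 18132 genes were called, with all probe sets of a gene averaged 1150, and with the _x_at and _s_at probe sets removed 1367 of 34921 probe sets, each fit testing fewer features. In that last fit SPRY4 and IER3 had no probe set left. In the fit with 1 probe set per gene, 5 of the 10 genes were called, EGR1 (limma adjusted p = 0.0419) and IER3 (limma adjusted p = 0.0449) besides the 3 named. EGR1 passed the threshold under 10 alternatives, IER3 under 7 and SPRED1 under 4, though none of them did at its brightest probe set in the fit reported. EGR1 missed it under 7 others, and IER3 and SPRED1 each missed it under more alternatives than they passed. Of the fits without 1 array, each passed only in that without control replicate 2. Not all of the alternatives that passed read the same probe set. For EGR1 they include the average of its probe sets (-1.22) and the fit without _x_at and _s_at probe sets, which read 11752940_a_at (-2.23). For SPRED1 they include the average of its probe sets (-0.33). With all probe sets of a gene averaged, the difference of SPRY4 was -0.40 in place of -1.13 and stayed called (limma adjusted p = 0.0375), its dim probe sets entering the mean.

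At the brightest probe set each fit held, or the average of a gene's probe sets, no setting turned the direction of any of the 10 genes. The added comparison with control replicate 2 alone is included. With the replicate number as a block the counts were 1990 probe sets, 6 member probe sets and 7 pathway genes, and EGR1 was called at its brightest probe set (limma adjusted p = 0.026). Same-numbered arrays deviated together at correlations of -0.10, 0.03 and 0.09 across probe sets. Of the 3 knockdown arrays, 1 correlated best with the control of its own number. No pairing by number was seen, but so few arrays, with control replicate 2 apart from the other controls, cannot settle whether the numbers pair the samples. Dim probe sets limit what SPRY4 and EGR1 can show beyond their brighter ones.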
